A study of Mus musculus with 16 samples.

Results

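Irf8 encodes interferon regulatory factor 8 and lies on mouse chromosome 8 (ENSMUSG00000041515.10, plus strand, chr8:120736358-120756694 in mm10, GENCODE M21). Open chromatin around it was measured by ATAC-Seq, in which the Tn5 transposase inserts sequencing adapters where DNA is accessible, and peaks mark stretches where insertions pile up. Every peak within 150 kb of the gene start at position 120736358 was taken from the 49000 most significant peaks of each of 16 libraries, with overlapping peaks (1 bp or more) joined as a site. This gave 44 sites, built from 418 peaks, among 90359 regions in the whole genome and 5178 on chromosome 8. Sites are named by the distance of their centre from the gene start, with minus signs for upstream.

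The cells were hi-77 progenitors, fetal liver hematopoietic progenitors immortalized with an estrogen-regulated HOXB8, either wild type (hi-77+/+) or lacking both copies of the Gata2 enhancer that lies 77 kb upstream of that gene (hi-77-/-). GATA2 is a zinc finger transcription factor of stem and progenitor cells, and hi-77-/- cells keep a reduced level of it. Cells were infected for 3 days with a retrovirus and isolated by sorting, and each group had 4 libraries: hi-77+/+ empty and hi-77-/- empty carried the empty vector, hi-77-/- GATA2 carried GATA2, and hi-77-/- 9aa-Ins carried a disease variant with 9 extra amino acids between the zinc fingers. GATA2 was not tested on the hi-77+/+ background. No label names separate lines within a genotype, so a genotype difference cannot be told apart from a difference between lines, and no label ties replicates to separate cultures, so p-values measure the spread between these libraries.

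IRF8 directs myeloid progenitors toward monocytes and dendritic cells and away from neutrophils, and it also acts in B cells. It binds DNA weakly alone and joins partners such as PU.1, an ETS factor, or BATF3 on composite sites. Its transcription is set by distant enhancers: elements near -50, +32, +41 and +56 kb have been described in mouse myeloid cells, the +32 kb element being a BATF3 target in type 1 dendritic cells and the +41 kb element a target of E proteins. In these libraries the -50 kb window, taken 2 kb either side, held 2 sites, the +32 and +56 kb windows held 1 each, and the +41 kb window held 0.

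The sequence around the typical summit of 13 sites is shown because the results turn on these sites: the promoter, the sites in the enhancer windows, the sites opened or closed in a comparison below and the site with the largest difference in each comparison. Each is 201 bases of the plus strand of mm10, 100 either side of the median summit. Capitals mark matches on either strand. The GATA motif was searched as AGATAA and, with its first or last letter changed, as AGATAG besides TGATAA together with the fourth form TGATAG. The ETS motif was searched as GAGGAA, the C/EBP motif as TTGCNNAA, the IRF motif as GAAANNGAAA and the composite ETS with IRF motif as GGAANNGAAA, where N is any base.
-125.4 kb (chr8:120610919-120611119): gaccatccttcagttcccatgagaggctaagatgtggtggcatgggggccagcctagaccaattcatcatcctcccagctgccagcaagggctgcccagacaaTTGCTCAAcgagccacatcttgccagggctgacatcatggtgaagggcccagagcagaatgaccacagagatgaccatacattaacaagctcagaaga
-53.6 kb (chr8:120682776-120682976): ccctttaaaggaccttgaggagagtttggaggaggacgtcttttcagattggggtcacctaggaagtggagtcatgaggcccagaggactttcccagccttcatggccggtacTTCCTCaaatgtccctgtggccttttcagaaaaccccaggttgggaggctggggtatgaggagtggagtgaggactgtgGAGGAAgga
-50.4 kb (chr8:120686195-120686395): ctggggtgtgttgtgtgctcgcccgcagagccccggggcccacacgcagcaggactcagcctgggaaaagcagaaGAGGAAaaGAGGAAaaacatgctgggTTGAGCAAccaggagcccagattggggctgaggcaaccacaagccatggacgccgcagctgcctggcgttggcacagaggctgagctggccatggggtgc
-48.6 kb (chr8:120687621-120687821): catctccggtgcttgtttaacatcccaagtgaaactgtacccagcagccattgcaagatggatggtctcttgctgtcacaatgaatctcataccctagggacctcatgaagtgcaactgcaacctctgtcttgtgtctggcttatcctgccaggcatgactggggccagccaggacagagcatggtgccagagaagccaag
-39.1 kb (chr8:120697769-120697969): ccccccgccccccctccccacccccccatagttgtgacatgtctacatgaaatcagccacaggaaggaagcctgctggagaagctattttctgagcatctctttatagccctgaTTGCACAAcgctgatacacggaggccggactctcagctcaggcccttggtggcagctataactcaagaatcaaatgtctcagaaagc
-36.3 kb (chr8:120699732-120699932): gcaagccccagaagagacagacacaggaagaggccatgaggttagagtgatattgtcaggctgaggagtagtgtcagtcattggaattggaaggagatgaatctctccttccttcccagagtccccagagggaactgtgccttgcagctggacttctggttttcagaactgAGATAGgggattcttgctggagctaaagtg
-10.9 kb (chr8:120725348-120725548): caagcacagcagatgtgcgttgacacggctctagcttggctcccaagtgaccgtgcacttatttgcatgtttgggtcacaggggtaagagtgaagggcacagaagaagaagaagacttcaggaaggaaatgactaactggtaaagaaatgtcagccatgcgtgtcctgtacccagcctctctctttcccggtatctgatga
-0.2 kb (chr8:120736179-120736379): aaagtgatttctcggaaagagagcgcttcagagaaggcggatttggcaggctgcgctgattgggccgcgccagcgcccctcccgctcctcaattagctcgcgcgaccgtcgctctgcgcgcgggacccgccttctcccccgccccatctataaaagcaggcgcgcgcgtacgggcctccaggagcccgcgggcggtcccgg
+27.1 kb (chr8:120763345-120763545): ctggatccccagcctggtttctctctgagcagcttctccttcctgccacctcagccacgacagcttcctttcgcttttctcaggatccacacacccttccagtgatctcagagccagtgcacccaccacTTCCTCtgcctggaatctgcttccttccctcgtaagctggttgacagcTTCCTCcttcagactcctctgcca
+30.4 kb (chr8:120766740-120766940): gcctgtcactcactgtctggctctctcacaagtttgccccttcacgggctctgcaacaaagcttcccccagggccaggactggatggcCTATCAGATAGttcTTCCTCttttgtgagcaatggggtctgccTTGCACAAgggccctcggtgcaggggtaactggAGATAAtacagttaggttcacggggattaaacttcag
+56.7 kb (chr8:120792820-120793020): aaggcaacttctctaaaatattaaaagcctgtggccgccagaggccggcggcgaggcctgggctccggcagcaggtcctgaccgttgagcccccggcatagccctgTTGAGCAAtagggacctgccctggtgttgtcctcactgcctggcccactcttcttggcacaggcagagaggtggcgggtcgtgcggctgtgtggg
+70.9 kb (chr8:120807219-120807419): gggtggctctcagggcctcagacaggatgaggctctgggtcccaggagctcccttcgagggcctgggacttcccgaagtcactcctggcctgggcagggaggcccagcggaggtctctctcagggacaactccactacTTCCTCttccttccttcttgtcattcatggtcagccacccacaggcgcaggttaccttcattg
+71.4 kb (chr8:120807826-120808026): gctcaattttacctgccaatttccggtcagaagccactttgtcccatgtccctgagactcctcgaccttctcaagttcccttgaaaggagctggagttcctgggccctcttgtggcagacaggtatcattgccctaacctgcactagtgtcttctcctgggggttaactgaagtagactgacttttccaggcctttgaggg

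A GATA match was present in 8 of the 44 windows (18.2%), against 26.5% of the windows of all 90359 regions. Of the 13 windows shown, -36.3 kb held 1 GATA match and +30.4 kb held 3. An ETS match was present in 15 windows (34.1%, against 30.3% of all regions), and the windows at -53.6, -50.4 and +27.1 kb held 2 each. A C/EBP match was present in 9 (20.5%, against 11.4%). The windows at -125.4, -50.4 and +56.7 kb held the same 8 letters, TTGCTCAA read on 1 strand or the other, which occurred in 1.27% of all regions; these letters were singled out after the windows had been read. An IRF match occurred in 1 window (2.27%, against 2.10%) and the ETS with IRF pattern in 0 (against 2.17%). A match is a description of letters and not of binding.

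Each library was ranked by itself, because the deposited files hold peaks and not reads. The rank score is 100 for the most significant peak of a library, falls to near 0 for peak 49000, and is 0 where a site has no peak among the 49000. The number of fragments stacked at a summit, called the summit pileup here, was recovered from the fold enrichment and was 7 to 11 at the last peak taken. It was 7 in hi-77-/- GATA2, 7 to 8 in hi-77-/- empty, 7 to 9 in hi-77+/+ empty and 9 to 11 in hi-77-/- 9aa-Ins. The same pileup can thus count as a peak in some libraries and not in others. Between 2411 and 9121 peaks of a library tied with that last peak, so that 1 fragment decides whether a weak peak is in or out, and low scores differ by few fragments. A site was called opened when all 4 libraries of the first group and 0 of 4 of the second had a peak, and closed in the reverse case. It was called higher or lower when the 4 scores of 1 group all lay above or below the 4 of the other, which is also where the 2-sided exact permutation test over libraries gives its smallest possible p of 0.0286. No region of the genome passed an adjusted p of 0.05 in any comparison (Benjamini-Hochberg over 67494 to 75493 regions, smallest adjusted p 0.115 for the deletion, 0.174 with GATA2, 0.259 with 9aa-Ins and 0.144 between 9aa-Ins and GATA2), and 7445 to 18762 regions had an unadjusted exact p under 0.05. With 4 libraries a group, a region could pass only if most regions reached the smallest possible p. The adjusted test thus cannot tell whether a single region differs.

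The libraries held 50195 to 112267 deposited peaks. All 8 hematopoietic progenitor markers had a peak within 1 kb of the gene start in at least 15 libraries, and Mpo was the one missing from 1 of them. The 4 hepatocyte markers (Alb, Afp, Ttr, Apoa1) and the 3 T cell markers (Cd3e, Cd4, Cd8a) had 0, as had Pax5 and Ms4a1 of the B cell list and Csf1r and Mrc1 of the macrophage list, while Adgre1 and Cd68 had a peak in all 16. Among B cell markers Cd79a had a peak in 1 hi-77+/+ empty, 4 hi-77-/- empty, 0 hi-77-/- GATA2 and 4 hi-77-/- 9aa-Ins libraries. Of 3 mast cell and basophil markers, Cpa3 had a peak in the 4 hi-77-/- GATA2 libraries alone, Mcpt8 in 2, 4, 3 and 4 libraries of the same groups, and Fcer1a in 0. Among erythroid markers, Klf1 and Epor had a peak in 16 libraries and Hbb-bt in 0. Of 3 endothelial markers, Pecam1 had one in 15 and Cdh5 and Kdr in 0. Cell mixture was not tested as a part of the differences below.

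Chromosome 8 as a whole ranked lower in the hi-77-/- cells than in hi-77+/+ empty, where it stood above the genome-wide median. Over regions with a peak in all 16 libraries, its median score in hi-77+/+ empty was 84.3 to 85.6, against 76.3 to 77.4 genome-wide. In the 12 hi-77-/- libraries chromosome 8 stood at 75.9 to 77.7, against 76.6 to 77.6 genome-wide. Over 1223 of its regions with a peak in all 16 libraries, the median difference in mean rank score from hi-77+/+ empty was -5.66 in hi-77-/- empty, -5.91 in hi-77-/- GATA2 and -5.62 in hi-77-/- 9aa-Ins, while the other 18 autosomes lay between -2.09 (chromosome 19) and 3.08 (chromosome 11) in hi-77-/- empty. Chromosome 8 held 6.59 to 6.80% of the top peaks in hi-77+/+ empty and 5.05 to 5.59% in the 12 hi-77-/- libraries. The difference ran along the chromosome, with medians of -8.18 to -4.33 in 20 Mb bins and -4.61 in the bin that starts at 120 Mb and holds Irf8. Between vectors on the hi-77-/- background it was nearly gone, at 0.207 for GATA2 and 0.00408 for 9aa-Ins against empty. A site of Irf8 that was higher in hi-77-/- cells thus moved against its chromosome, and a site that was lower moved with it.

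Of the 44 sites, 10 had a peak in all 16 libraries, 25 in 2 to 15 and 9 in 1. Of these, 28 lay upstream of the promoter site and 14 downstream of a single-library peak at +0.3 kb, and no site lay beyond +92.2 kb, in the stretch toward Foxf1. The full deposited lists held 767 peaks in the same 300 kb. The number of sites with a peak was 22 to 28 in hi-77+/+ empty, 22 to 28 in hi-77-/- empty, 18 to 19 in hi-77-/- GATA2 and 23 to 25 in hi-77-/- 9aa-Ins, so that each GATA2 library had fewer than every library of the other groups. Peaks covered 7917 to 11832 bp, 8843 to 10587 bp, 4225 to 6430 bp and 11054 to 14662 bp of the window in the same order. Covered length also follows peak width. At the -147.4 kb site, which scored 97.97 or more in all 16 libraries, it was 1093 to 1693, 949 to 1057, 661 to 1102 and 1076 to 1445 bp. Covered length over the whole genome was not set beside these values. The summed rank score was 1338 ± 115 (SD, n = 4) in hi-77+/+ empty, 1120 ± 38.8 in hi-77-/- empty, 817 ± 20.6 in hi-77-/- GATA2 and 1154 ± 81.2 in hi-77-/- 9aa-Ins.

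**Figure D1:**
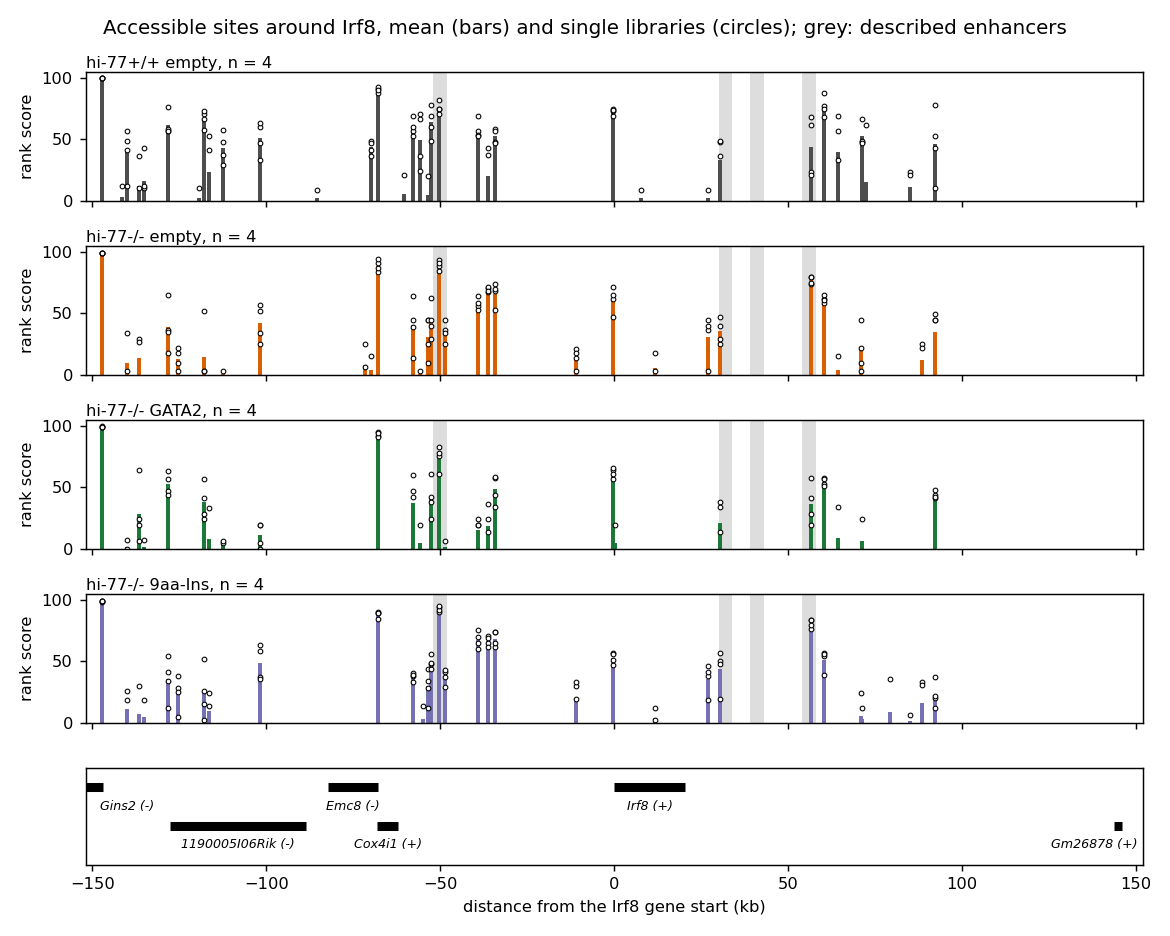
Rank score (0 to 100) of the 44 sites against distance from the Irf8 gene start in kb, 1 panel a group, with bars for the mean of 4 libraries, circles for single libraries with a peak, grey bands for the windows of described enhancers, and genes with their strand below. The bars at -39.1, -36.3 and +56.7 kb are shorter in hi-77-/- GATA2 than in hi-77-/- empty or hi-77-/- 9aa-Ins, and the +41 kb band is empty in every panel.

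The Irf8 promoter was open in every library. Its site (chr8:120735880-120736528, -0.2 kb) spans the gene start and the 5′ untranslated region. The scores of replicates 1 to 4 were 74.4, 69.2, 72.8 and 73.5 in hi-77+/+ empty and 47.3, 61.4, 71.2 and 64.6 in hi-77-/- empty. They were 64.5, 57.1, 65.7 and 60.98 in hi-77-/- GATA2 and 47.2, 56.6, 50.9 and 56.1 in hi-77-/- 9aa-Ins. The hi-77+/+ and hi-77-/- empty groups overlapped, and so did GATA2 and empty. The 9aa-Ins libraries all lay below the GATA2 libraries, by 9.37 on average (exact permutation p = 0.0286). With all deposited peaks this difference turned to 4.04.

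Of the other sites over gene starts, those at -147.4 and -68.0 kb had a peak in all 16 libraries and ranked high. No site lay at the start of 1190005I06Rik. The site at -147.4 kb, shared by Gins2 (a replication factor of the GINS complex) and the noncoding Gm10614, scored 97.97 to 99.8 over the 16 libraries. The site at -68.0 kb, from which Emc8 (a subunit of the membrane protein insertion complex) and Cox4i1 (a cytochrome c oxidase subunit) are read in opposite directions, scored 83.6 to 94.6. The -147.4 kb site was lower in each hi-77-/- empty library than in each hi-77+/+ empty one, by 0.830 of 100. A site at -101.8 kb over a coding exon of 1190005I06Rik scored 51.6, 33.9, 24.9 and 56.6 in hi-77-/- empty and 4.70, 19.8, 0.0388 and 19.1 in hi-77-/- GATA2, a drop of 30.8 with no overlap.

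The site in the -50 kb window had the highest mean of the sites away from coding gene starts in the hi-77-/- groups, while in hi-77+/+ empty the +60.2 kb site was higher (76.8 ± 8.11 against 75.5 ± 4.77, SD, n = 4). It was 1921 bp wide (chr8:120684949-120686869) and covered the start of the uncharacterized transcript Gm33142. Its scores were 82.2, 74.5, 74.8 and 70.8 in hi-77+/+ empty and 88.6, 93.1, 90.7 and 84.8 in hi-77-/- empty. They were 61.1, 82.9, 75.2 and 78.04 in hi-77-/- GATA2 and 90.00, 94.4, 92.2 and 95.4 in hi-77-/- 9aa-Ins. The hi-77-/- empty libraries lay above the hi-77+/+ empty libraries by 13.7 and above the GATA2 libraries by 14.99, and 9aa-Ins lay above GATA2 by 18.7, each without overlap (exact permutation p = 0.0286). The summit pileups were 35, 45, 38 and 40 in hi-77-/- empty against 28, 19, 24 and 19 in hi-77+/+ empty. Merging regions by summits split the site in a main summit near -50.1 kb, present in all 16 libraries, and a shoulder near -50.8 kb with a summit in 3, 4, 3 and 1 libraries of hi-77+/+ empty, hi-77-/- empty, GATA2 and 9aa-Ins. The shoulder scored 67.9 to 72.2 in hi-77-/- empty and at most 30.0 in hi-77+/+ empty, 13.6 in GATA2 and 45.1 in 9aa-Ins. Each peak has 1 summit, and 9aa-Ins replicates 1, 2 and 4 had 1 peak of 1894, 1804 and 1533 bp here. A shoulder inside such a peak could have no summit of its own, so its missing summit is not a missing shoulder. Peaks at this site covered 1496 to 1894 bp in 9aa-Ins and 589 to 891 bp in GATA2, and when only peaks under 1 kb were taken the difference of 9aa-Ins from GATA2 turned to -65.6.

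Another, weaker site lay in the same window at -48.6 kb (chr8:120687554-120688011). It had no peak in hi-77+/+ empty, and scored 36.4, 33.9, 24.9 and 44.2 in hi-77-/- empty. In hi-77-/- GATA2 it had a peak in replicate 2 alone, at 6.57, and in hi-77-/- 9aa-Ins it scored 28.9, 41.7, 37.7 and 42.9. It was thus opened in hi-77-/- empty against hi-77+/+ empty, and fell 1 library short of the rule for closing by GATA2. In the full lists 3 of 4 hi-77+/+ empty and 3 of 4 GATA2 libraries had a weaker peak there.

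The site in the +56 kb window was also higher in hi-77-/- empty and 9aa-Ins than in the other groups. It lay at chr8:120792637-120793562 and scored 68.2, 23.3, 21.3 and 61.2 in hi-77+/+ empty and 73.9, 79.6, 74.6 and 79.1 in hi-77-/- empty. With GATA2 it scored 57.4, 19.8, 41.8 and 28.5, and with 9aa-Ins 83.4, 76.7, 79.3 and 83.4. The hi-77-/- empty libraries lay above hi-77+/+ empty by 33.3 and above GATA2 by 39.9, and 9aa-Ins above GATA2 by 43.8, without overlap (exact permutation p = 0.0286 each). The hi-77+/+ empty libraries were spread, with replicates 1 and 4 far above replicates 2 and 3. The summit pileups of hi-77-/- empty were 23, 29, 24 and 34 and those of GATA2 15, 9, 11 and 10.

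The site in the +32 kb window did not separate the groups. It lay at +30.4 kb (chr8:120766607-120766990) and scored 36.7, 47.9, 48.4 and 0 in hi-77+/+ empty, 47.3, 39.8, 24.9 and 29.1 in hi-77-/- empty, 13.6, 37.7, 34.1 and 0 in GATA2 and 56.6, 50.1, 48.1 and 19.1 in 9aa-Ins. Its mean differed by 2.04 for the deletion and by -13.9 for GATA2, and the ranges overlapped in both (exact permutation p = 0.914 and 0.229).

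**Figure D2:**
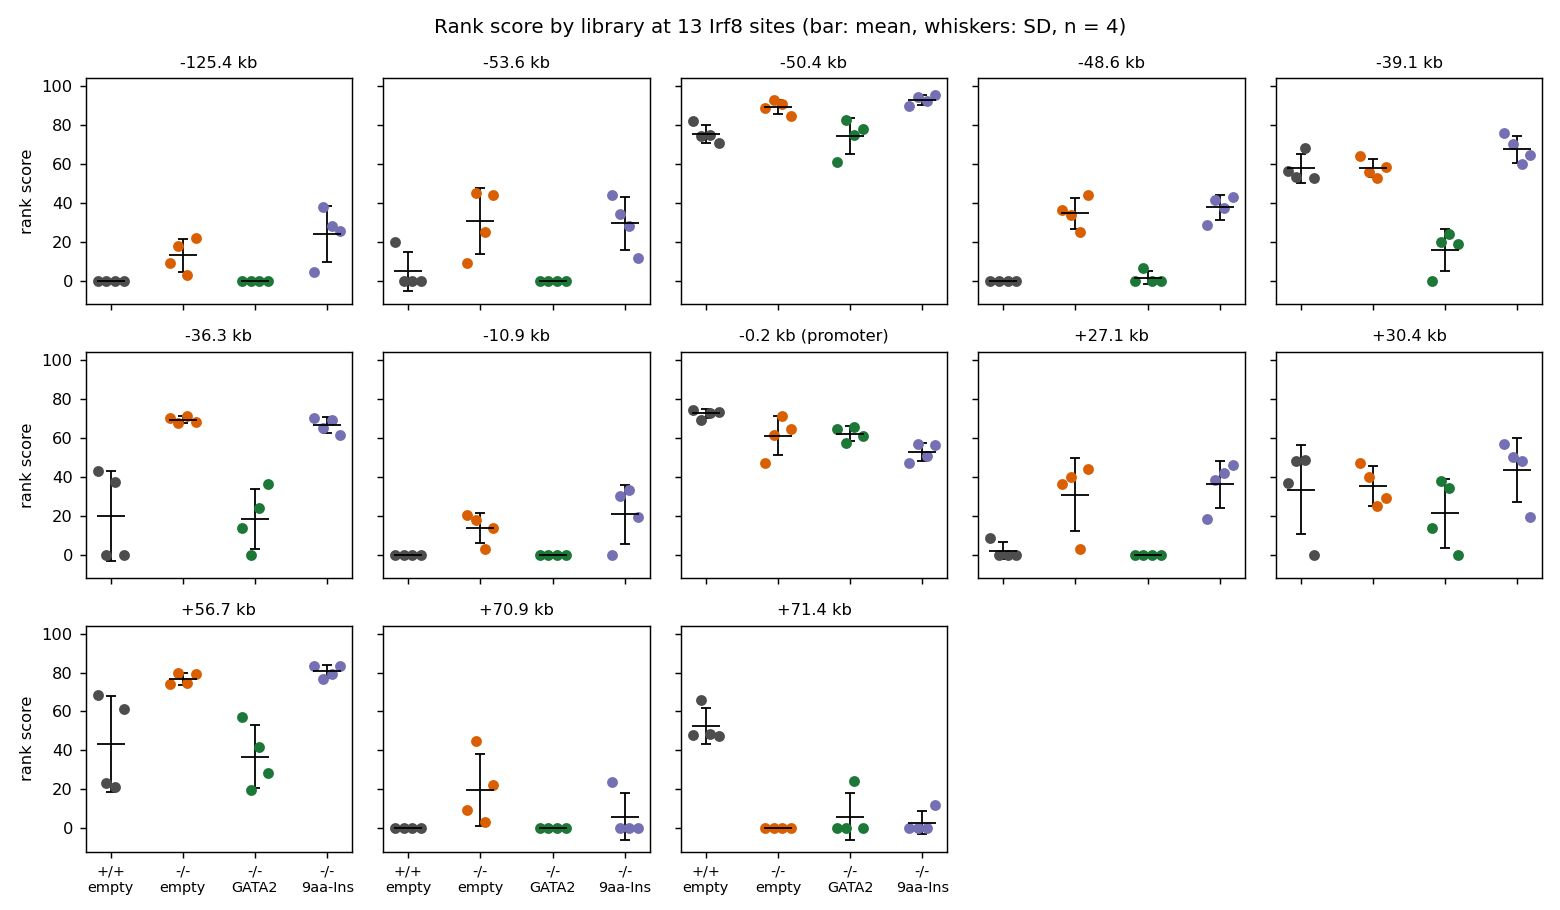
Rank score of 13 sites in single libraries (dots), with the mean as a bar and the SD as whiskers (n = 4), by group. At -36.3 kb the lowest hi-77-/- empty or 9aa-Ins dot is at 61.7 and the highest GATA2 dot at 36.1, at +56.7 kb they are at 73.9 and 57.4, and at -125.4 kb the hi-77+/+ empty and GATA2 dots are all at 0.

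Another 3 sites between -39.1 and -34.2 kb made up a cluster with no described name. At -39.1 kb, a site 2074 bp wide, hi-77+/+ empty scored 56.4, 53.5, 68.5 and 52.6 and hi-77-/- empty 64.1, 56.1, 52.96 and 58.7, which overlapped. GATA2 scored 0, 19.8, 24.1 and 19.1 and 9aa-Ins 75.9, 70.2, 59.8 and 64.8 there. GATA2 libraries lay below empty by 42.2 and below 9aa-Ins by 51.9, the largest difference between the 2 proteins at this locus. At -36.3 kb hi-77+/+ empty scored 42.8, 0, 37.2 and 0, hi-77-/- empty 70.4, 67.6, 71.2 and 67.9, GATA2 13.6, 0, 24.1 and 36.1 and 9aa-Ins 70.4, 64.9, 69.3 and 61.7. This site had the largest rise with the deletion, 49.3, and the largest fall with GATA2, 50.8, and its GATA2 mean of 18.4 ± 15.4 sat beside 19.99 ± 23.2 in hi-77+/+ empty (SD, n = 4). At -34.2 kb the scores were 68.4, 52.9, 69.3 and 73.5 in hi-77-/- empty and 57.4, 44.04, 34.1 and 58.2 in GATA2, which overlapped, and 9aa-Ins (73.8, 61.9, 74.1 and 64.8) lay above GATA2 by 20.2.

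The hi-77-/- empty libraries were compared with hi-77+/+ empty to see what loss of the Gata2 enhancer changed at Irf8. Of 41 sites with a peak in either group, 4 were opened (9.76%), against 4.31% of all regions and 2.04% of chromosome 8 regions. They lay at -125.4, -48.6, -10.9 and +70.9 kb. Only 1 was closed (2.44%), at +71.4 kb, against 2.52% of all regions and 5.74% on chromosome 8. Leaving out hi-77-/- empty replicate 4 gave 3 closed sites, and leaving out hi-77-/- empty replicate 3 or hi-77+/+ empty replicate 3 gave 2. A further 3 sites were higher without being new (-50.4, -36.3 and +56.7 kb), which makes 7 of 41 higher (17.1%, against 13.3% of all regions and 5.28% on chromosome 8). Another 7 were lower (17.1%, against 11.6% and 27.3%). Of all 21938 protein-coding genes, 1.85% had at least 4 opened regions within 150 kb.

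The opened site at -125.4 kb, in an intron of 1190005I06Rik, separated the groups by presence alone. No hi-77+/+ empty library had a peak there, and hi-77-/- empty scored 9.38, 17.96, 3.18 and 22.1. No GATA2 library had a peak, and 9aa-Ins scored 4.52, 38.2, 28.3 and 25.4. The presence was the same in the full lists, with a peak in 0, 4, 0 and 4 libraries of these groups. The peaks were small, with summit pileups of 8, 9, 8 and 11 in hi-77-/- empty and 12, 18, 13 and 13 in 9aa-Ins, and the call was lost with the top 50% of the 49000 peaks and with chromosome 8 ranked alone.

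The opened site at -10.9 kb, the nearest to the promoter, was also weak. It scored 20.6, 17.96, 3.18 and 13.6 in hi-77-/- empty and 0, 30.3, 33.4 and 19.1 in 9aa-Ins, and had no peak in hi-77+/+ empty or GATA2. In the full lists 2 hi-77+/+ empty and 0 GATA2 libraries had a peak, and the opening by deletion held in 2 of 9 other settings, being lost also when ties at the last peak were kept.

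Downstream, an opened and a closed site lay side by side, 140 bp apart. At +70.9 kb (chr8:120807071-120807422) hi-77-/- empty scored 9.37, 44.9, 3.17 and 22.1, no hi-77+/+ empty or GATA2 library had a peak, and 9aa-Ins had 1, at 23.98 in replicate 1. At +71.4 kb (chr8:120807563-120808043) hi-77+/+ empty scored 47.9, 66.1, 48.4 and 47.2 and no hi-77-/- empty library had a peak, the largest fall with the deletion (52.4). GATA2 had 1 there, at 24.1 in replicate 3, and 9aa-Ins had 1, at 11.9 in replicate 4. In the full lists 3 hi-77+/+ empty, 1 GATA2 and 4 9aa-Ins libraries had a peak at +70.9 kb. With all deposited peaks these stretches merged and the difference at +70.9 kb turned to -30.0, and 3 of 4 hi-77-/- empty libraries had a peak at +71.4 kb.

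Of the 7 sites lower in hi-77-/- empty, 5 lay upstream of Irf8. At -118.0 kb the score fell from 66.7 ± 6.88 in hi-77+/+ empty to 14.4 ± 24.8 in hi-77-/- empty (SD, n = 4), the latter carried by replicate 1 at 51.6. At -112.4, -70.0 and -55.7 kb all 4 hi-77+/+ empty libraries had a peak and 1 of 4 hi-77-/- empty libraries did, with falls of 42.2, 39.5 and 48.6, so each missed the rule for closing by 1 library. At +60.2 kb hi-77+/+ empty scored 87.5, 76.8, 74.8 and 67.9 and hi-77-/- empty 58.6, 61.4, 64.95 and 60.8, a fall of 15.3 without overlap. When chromosome 8 peaks were ranked alone, with 2475 from each library, the 7 lower sites became 1 and the 7 higher sites 6.

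**Figure D3:**
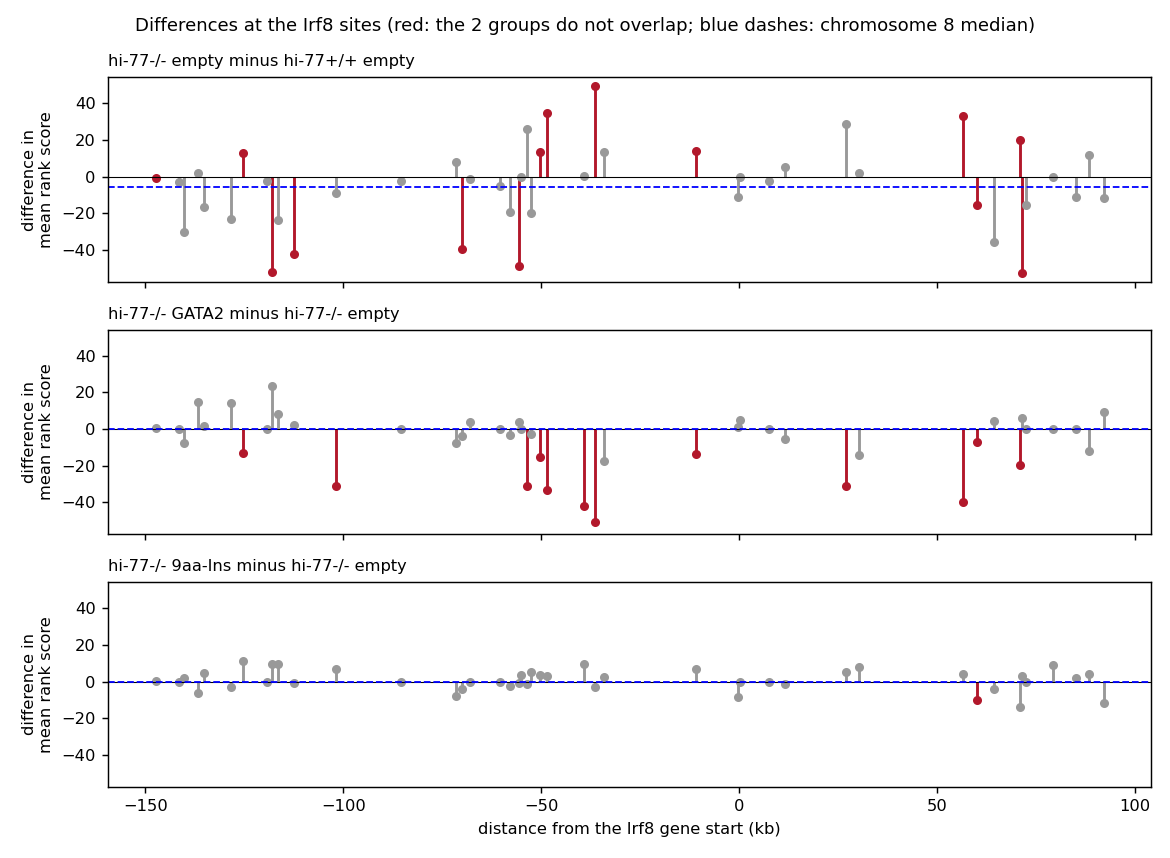
Difference in mean rank score at each site against distance from the Irf8 gene start in kb, for hi-77-/- empty against hi-77+/+ empty (top), GATA2 against empty (middle) and 9aa-Ins against empty (bottom). Red marks sites whose groups of 4 libraries do not overlap, and the blue dashes mark the chromosome 8 median (-5.66 in the top panel); red marks point up and down in the top panel, down alone in the middle one, and 1 is left in the bottom one.

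GATA2 was then compared with the empty vector in hi-77-/- cells. The 4 hi-77-/- empty libraries served in this and in the previous comparison, so their values enter both. Of 35 sites with a peak in either group, 0 were opened (against 2.14% of all regions) and 5 were closed (14.3%, against 2.82%). The closed sites lay at -125.4, -53.6, -10.9, +27.1 and +70.9 kb. None was higher in every library (against 6.95%), and 12 were lower (34.3%, against 9.51%). At least 5 closed regions within 150 kb were found for 0.182% of protein-coding genes, 40 of 21938 with Irf8 among them. With all peaks, the top 50% of the 49000 peaks, chromosome 8 alone or ties kept, 1 to 3 sites were closed. Leaving out hi-77-/- empty replicate 1, 3 or 4 gave 1 higher site.

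Of the closed sites, -53.6 and +27.1 kb were 1 library short of opened by the deletion. At -53.6 kb (chr8:120682549-120683044) hi-77-/- empty scored 9.37, 44.9, 24.9 and 44.2, GATA2 had no peak, 9aa-Ins scored 44.2, 34.5, 28.2 and 11.9, and hi-77+/+ empty had 1, at 20.1 in replicate 1. At +27.1 kb (chr8:120763336-120763667) hi-77-/- empty scored 36.4, 39.8, 3.17 and 44.2, GATA2 had no peak, 9aa-Ins scored 18.4, 38.2, 41.7 and 46.1, and hi-77+/+ empty had 1, at 8.45 in replicate 1. In the full lists 2 GATA2 and 4 hi-77+/+ empty libraries had a peak at -53.6 kb, and 2 and 2 at +27.1 kb, so the difference in presence between the empty groups at -53.6 kb was lost there.

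The lower sites that kept a peak in some GATA2 library were -101.8, -50.4, -48.6, -39.1, -36.3, +56.7 and +60.2 kb. The +60.2 kb site fell by 6.82, from 61.4 ± 2.63 to 54.6 ± 3.07 (SD, n = 4). The largest rise with GATA2, at -118.0 kb, was 23.4 and its groups overlapped (24.03, 57.1, 41.8 and 28.5 in GATA2, exact permutation p = 0.171).

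9aa-Ins, the variant, was compared with the same empty libraries. Against empty, 9aa-Ins opened 0 of 37 sites and closed 0 (against 1.85% and 0.210% of all regions), 0 were higher (against 7.49%) and 1 was lower (2.70%, against 3.54%). The lower one was +60.2 kb, with 54.6, 56.6, 55.8 and 39.2 in 9aa-Ins, a fall of 9.89 (exact permutation p = 0.0286). The largest difference was at +70.9 kb, where the mean was 5.996 ± 11.99 in 9aa-Ins and 19.9 ± 18.4 in empty (SD, n = 4) and the ranges overlapped. In the full lists all 4 libraries of both groups had a peak there. Leaving out hi-77-/- 9aa-Ins replicate 1 gave 1 closed, 2 higher and 2 lower sites, leaving out hi-77-/- empty replicate 1 gave 1 higher and 3 lower sites, and leaving out hi-77-/- 9aa-Ins replicate 3 or 4 gave 1 higher site. With all deposited peaks 8 sites were higher in 9aa-Ins, whose lists ran to 108020 peaks.

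Set against GATA2 directly, 9aa-Ins opened 3 of 36 sites (8.33%, against 3.67% of all regions), at -125.4, -53.6 and +27.1 kb, and closed 0 (against 1.81%). A total of 10 sites were higher (27.8%, against 13.0%) and 3 were lower (8.33%, against 6.86%), the latter at -68.0, -0.2 and +92.2 kb. At +92.2 kb 9aa-Ins scored 37.2, 20.3, 22.2 and 11.9 and GATA2 40.99, 44.04, 47.6 and 42.2. The -10.9 kb site missed the rule for opening by 1 library, and so did -48.6 kb. Leaving out hi-77-/- 9aa-Ins replicate 2 gave 1 closed site. At least 3 such opened regions within 150 kb were found for 3.81% of protein-coding genes.

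**Figure D4:**
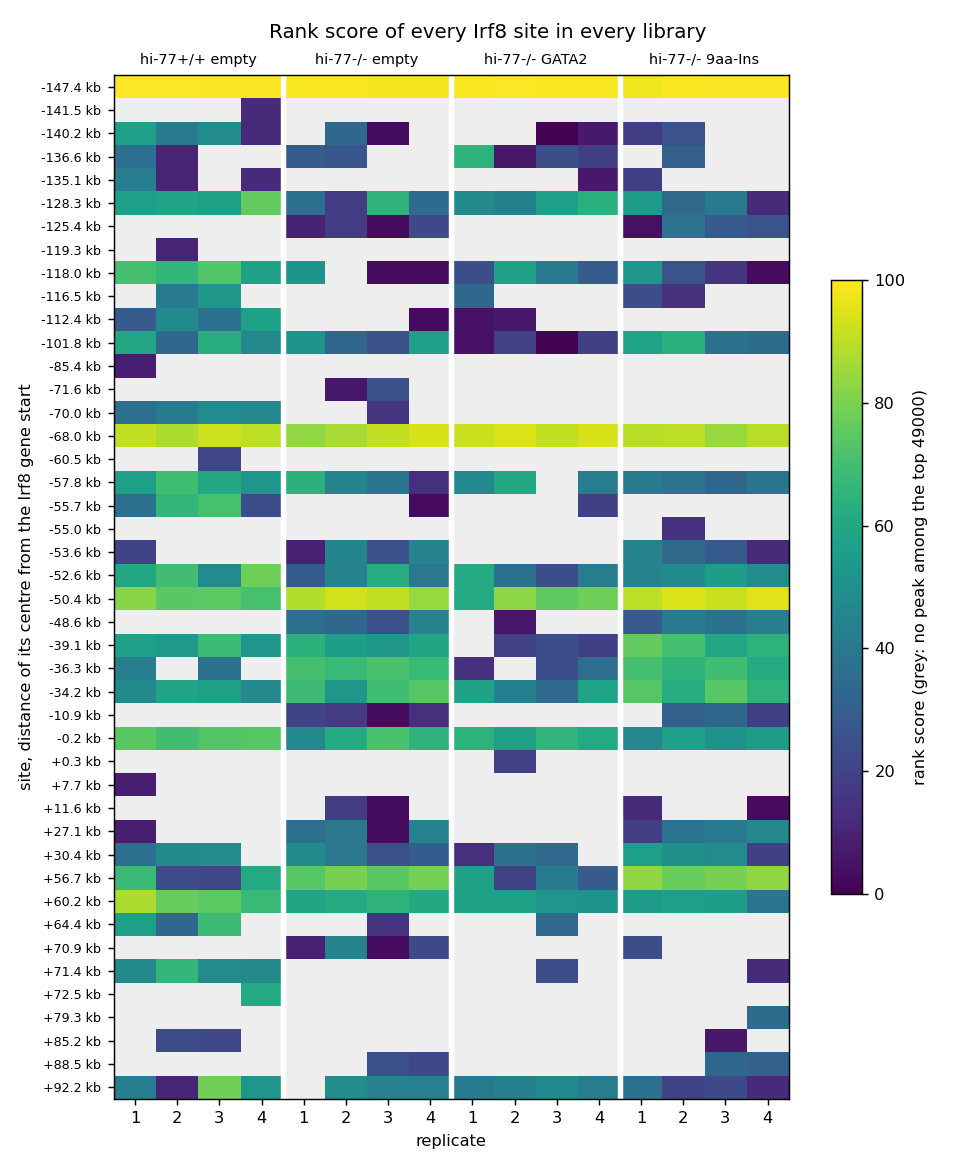
Rank score of all 44 sites (rows, from upstream to downstream) in the 16 libraries (columns, replicates 1 to 4 of each group), with grey for no peak among the top 49000. The rows -125.4, -53.6, -10.9 and +27.1 kb are grey in all 4 GATA2 libraries, and the rows -147.4 and -68.0 kb score 83.6 or more in all 16.

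Of the remaining sites, those with a peak in 16 libraries were -128.3, -101.8, -52.6 and -34.2 kb beside the ones described. The -128.3 kb site scored 56.4 to 75.8 in hi-77+/+ empty and 17.96 to 64.95 in hi-77-/- empty, and -52.6 kb 48.4 to 77.8 and 29.2 to 62.3, both with overlap. A peak in 1 library was found at 9 sites, 6 of them in hi-77+/+ empty (-141.5, -119.3, -85.4, -60.5, +7.7 and +72.5 kb), 2 in 9aa-Ins (-55.0 and +79.3 kb) and 1 in GATA2 (+0.3 kb). Inside the gene body, which spans 20.3 kb, the 3 intronic sites at +0.3, +7.7 and +11.6 kb had a peak in 1, 1 and 4 libraries.

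The other members of the IRF family were read in the same way, counting a gene where a region within 50 kb of its start was opened or closed. The deletion opened a region near 3 of 9 IRF genes (Irf3, Irf5, Irf8; 14.8% of all protein-coding genes) and closed one near Irf7 (14.4%). GATA2 opened 0 (8.96%) and closed 2, near Irf3 and Irf8 (11.5%). 9aa-Ins opened one near Irf1 (7.33%) and closed one near Irf3 (0.971%). Against GATA2 it opened 2, near Irf4 and Irf8 (14.6%), and closed 0 (7.89%).

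Among 21 regulators and partners of IRF8, GATA2 opened a region near 9 (42.9%, against 8.96% of all genes), including Spi1, which encodes PU.1, Gfi1, a repressor that favours neutrophils, Myb and Ikzf1. It closed one near 3 (14.3%, against 11.5% of all genes), at Cebpa, Gata2 and Runx1. The deletion opened one near 6 (28.6%, against 14.8% of all genes), at Cebpa, Gata2, Id2, Runx1, Stat5a and Tcf3, and closed one near 1 (4.76%, against 14.4% of all genes), at Batf3. 9aa-Ins opened one near 4 (19.0%, against 7.33% of all genes), at Batf, Gata2, Spi1 and Zeb2, and closed one near 0 (0.00%, against 0.971% of all genes). Against GATA2 it opened one near 5 (23.8%, against 14.6% of all genes) and closed one near 5 (23.8%, against 7.89% of all genes). Gata2 is among the 9 genes opened by GATA2 and the 4 opened by 9aa-Ins. Both retroviruses carried mouse Gata2 cDNA, so peaks from the vector cannot be told apart there from peaks of the gene.

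Among 24 IRF8 targets and lineage genes, the deletion opened a region near 13 (54.2%, against 14.8% of all genes), including the monocyte and dendritic cell genes Csf1r, Ctss, Mpeg1, Clec9a and Xcr1 and the B-lineage genes Pax5, Blnk and Cd79b. It closed one near 3 (12.5%, against 14.4% of all genes), at Cd74, Csf1r and Pml, a share near that of all genes. GATA2 closed one near 10 (41.7%, against 11.5% of all genes), including Csf1r, Ctss, Il12b, Ly86, Mpeg1, Blnk, Cd79a and Pax5, and opened one near 4 (16.7%, against 8.96% of all genes), at Cd74, Cd79b, Csf1r and Tifab. 9aa-Ins opened one near 5 (20.8%, against 7.33% of all genes) and closed one near 2 (8.33%, against 0.971% of all genes), at Blnk and Ly86. Against GATA2 it opened one near 10 (41.7%, against 14.6% of all genes) and closed one near 2 (8.33%, against 7.89% of all genes). Over the 54 genes of the 3 lists, 22 had a region opened by the deletion, where 14.8% of all genes did, and 15 a region closed by GATA2, where 11.5% did. Irf8 and Gata2 themselves count in both, and the lists were chosen with earlier results of these data known.

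The genes whose window of 300 kb followed that of Irf8 most closely were sought by Spearman correlation of the summed rank score over the 16 libraries, among 17787 protein-coding genes with at least 5 regions. The 5 closest were Adgrg1 (0.956), Cap1 (0.953), Gpaa1 (0.938), Gm10961 (0.938) and Ctcf (0.924). Adgrg1 and Ctcf are also on chromosome 8, and all points share the same libraries. For Cap1 the mean summed score was 1135 in hi-77+/+ empty, 981 in hi-77-/- empty, 717 in GATA2 and 1056 in 9aa-Ins.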

How the data were processed

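ATAC-Seq was performed on 16 libraries, 4 of each of 4 groups, from 50000 sorted cells each. Per the submitters' processing notes, the authors used Trim Galore 0.4.1, Bowtie2 2.2.5, Picard 2.26.0 and MACS2 with mm10, and deposited 1 peak list per library. These deposited lists hold a score, a fold enrichment at the summit, and −log10 p and q, with no read counts, so sequencing depth is unknown. Peaks on 21 main chromosomes were ranked by −log10 p, then fold, then position in the file, and the first 49000 of each library were merged where they overlapped by 1 bp or more. Summit pileups were recovered as whole steps of the fold enrichment, with 100% of values whole within 0.01%, and 99.98 to 100% of p-values matching a Poisson tail. Groups came from the labels. Rank scores were compared by a 2-sided exact permutation test with Benjamini-Hochberg adjustment over all regions (Python 3.11.15, numpy 2.4.6, scipy 1.17.1), and the functions were tested on simulated peak lists. Gene models were GENCODE M21, without the read-through gene Gm20388, which spans the locus. Sequences came from the RefSeq assembly GRCm38.p6, which has the coordinates of mm10, with pysam 0.24.0.

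Named sites were the promoter, sites in the windows of described enhancers, sites opened or closed in any comparison, those with the largest difference in each, those 1 library short of a call and those present in 16 libraries. The locus, sites and gene lists were chosen with earlier results of these data known. Some cell type markers are not reported here. Replicate numbers were not used to pair libraries outside the replicate block below. Alternatives were all deposited peaks, the top 50% of these peaks, chromosome 8 ranked alone, a −log10 q of at least 5, peaks under 1 kb, regions of 150 bp either side of summits, windows of 100 kb, each library left out and a replicate block. Keeping or dropping ties at the last peak, a numeric chromosome order and shared ranks for ties were chosen after seeing the data.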

Additional observations from a re-analysis of the deposited data

Results flagged for a closer look

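Groups of 4 values were screened for a library far from the other 3, by the ratio of its gap to the range of the group, judged by the 95% critical value of the Dixon test. Of 117 groups tested, 22 were flagged, and chance flags about 1 in 20. In 13 of them 1 library alone had a peak, so that the ratio is 1 by construction. These were, by rank score, hi-77-/- 9aa-Ins replicate 2 at -136.6 kb (30.3), hi-77-/- GATA2 replicate 4 (6.99) and hi-77-/- 9aa-Ins replicate 1 (18.4) at -135.1 kb, hi-77-/- empty replicate 4 at -112.4 kb (2.91) and -55.7 kb (2.91), hi-77-/- empty replicate 3 at -70.0 kb (15.4), hi-77-/- GATA2 replicate 4 at -55.7 kb (19.1), hi-77+/+ empty replicate 1 at -53.6 kb (20.1) and +27.1 kb (8.45), hi-77-/- GATA2 replicate 2 at -48.6 kb (6.57), hi-77-/- 9aa-Ins replicate 1 at +70.9 kb (24.0), and at +71.4 kb hi-77-/- GATA2 replicate 3 (24.1) and hi-77-/- 9aa-Ins replicate 4 (11.9).

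Other single libraries stood above the rest of their group in rank score: hi-77+/+ empty replicate 4 at -128.3 kb (75.8), hi-77-/- empty replicate 1 at -118.0 kb (51.6) and hi-77+/+ empty replicate 2 at +71.4 kb (66.1). Below the rest were hi-77-/- 9aa-Ins replicate 3 at -68.0 kb (84.8), hi-77-/- 9aa-Ins replicate 4 at +60.2 kb (39.2) and hi-77-/- empty replicate 1 at +92.2 kb, with no peak (0). The number of Irf8 sites with a peak was flagged in hi-77-/- GATA2 replicate 1 (18) and hi-77-/- 9aa-Ins replicate 3 (23). The rest of these groups tied at 19 and at 25, so that the ratio is again 1 by construction. The full list of hi-77-/- empty replicate 3 held more peaks at the locus (50) than the other lists of its group.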

How the results depend on the processing

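The counts of opened and closed sites are small and moved by more than 1.5 times under several choices. For the deletion, opened sites numbered 1 with all deposited peaks, 1 with the top 50% of the 49000 peaks and 2 with chromosome 8 ranked alone, and closed sites 4 with all deposited peaks and 0 with the top 50% of the 49000 peaks, with a −log10 q of at least 5 or with ties kept. Higher sites were 3 with all peaks and 3 with the top 50%, and lower sites 14, 3 and, with chromosome 8 alone, 1. For GATA2, closed sites were 2 with all peaks, 2 with the top 50%, 1 with chromosome 8 alone and 3 with ties kept. Lower sites were 5 with the top 50% of the 49000 peaks and 7 with chromosome 8 alone, which also gave 1 higher site. For 9aa-Ins against empty, all peaks gave 8 higher and 0 lower sites, and the q filter 1 opened site. For 9aa-Ins against GATA2, higher sites were 5 with the top 50% of the 49000 peaks, lower sites 0 with all peaks and 1 with peaks under 1 kb, and the q filter gave 5 opened sites. The cause of these changes was not tested.

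Leaving out 1 library gave, for the deletion, 4 to 6 opened, 1 to 3 closed, 7 to 9 higher and 7 to 10 lower sites. For GATA2 it gave 5 to 6 closed, 0 to 1 higher and 12 to 13 lower sites, for 9aa-Ins 0 to 1 closed, 0 to 2 higher and 1 to 3 lower, and for 9aa-Ins against GATA2 3 to 4 opened, 0 to 1 closed, 10 to 11 higher and 3 to 4 lower. These counts cannot fall below those with every library, because groups that separate stay separate without 1 library. With 1 hi-77+/+ empty library left out, the chromosome 8 difference was -6.07 to -5.50 in hi-77-/- empty. It was -6.19 to -5.73 in GATA2 and -6.06 to -5.25 in 9aa-Ins. Over all regions with 0 where absent it was -5.33 in GATA2 and -5.05 in 9aa-Ins.

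With a replicate block, counting sites whose 4 same-numbered differences had 1 sign, GATA2 had 2 higher sites, and 9aa-Ins 2 higher and 2 lower. Correlations between same-numbered libraries were small, -0.0287 to 0.0764 over the comparisons. For 9aa-Ins against GATA2 they were 0.0173 to 0.0764, and 3 of 4 9aa-Ins libraries correlated best with their own number. With 4 pairs the exact sign-flip p cannot go below 0.125.

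Of 40 site differences without overlap, 6 reversed in 664 recalculations and 37 lost separation, 15 of those with chromosome 8 ranked alone. Of the 664, 320 left out 1 library and 40 used the replicate block. Groups without overlap cannot lose separation in either, so these recalculations do not measure stability. The reversals were, with peaks under 1 kb, -147.4 kb for the deletion (74.6) and -50.4 kb for 9aa-Ins against GATA2 (-65.6), and with all peaks +70.9 kb for the deletion (-30.0), +60.2 kb for 9aa-Ins (0.369), and -0.2 kb (4.04) and +92.2 kb (1.90) for 9aa-Ins against GATA2. At -147.4 kb the peaks were 1093 to 1693 bp wide in hi-77+/+ empty and 949 to 1057 bp in hi-77-/- empty. The 1 kb limit thus removed every hi-77+/+ empty peak there.

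Over the 54 listed genes, 100 kb windows gave 8 closed by the deletion, 24 closed by GATA2, 18 opened by 9aa-Ins and 26 opened against GATA2. All deposited peaks gave 14 opened and 16 closed by the deletion, 16 opened and 0 closed by 9aa-Ins, and 27 opened and 4 closed against GATA2. The shares of all protein-coding genes were not computed under these settings. The counts thus cannot be read as more or fewer than those of other genes.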
